A study of Caenorhabditis elegans with 4 samples.

Results

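Stretches that held several neighbouring T26A5.5 sites were taken from the peak lists of a ChIP-seq experiment in C. elegans early embryos, in which DNA crosslinked to the protein is recovered with an antibody and sequenced. The stretches were chosen by the overlap of called peaks. A stretch is a peak of the ChIP replicate 1 list that overlapped, by 1 bp or more, at least 3 peaks of the series-wide list and at least 1 peak of the ChIP replicate 2 list. The narrower series-wide peaks are called sites here. The rule gave 744 stretches of 4200 replicate 1 peaks (17.7%), and they held 3105 of the 12350 sites. They are set beside 1930 single-site peaks, the replicate 1 peaks that overlapped exactly 1 site and at least 1 replicate 2 peak. The remaining 1526 replicate 1 peaks had no site, 2 sites or no replicate 2 peak.

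There were 2 ChIP libraries and 2 libraries of input chromatin, all from wild-type N2, the standard laboratory strain, at the early embryo stage, from a population of mixed males and hermaphrodites at 20 °C. Per the labels' protocols the embryos came from bleached gravid adults grown in liquid culture. Nothing in the labels states that replicates 1 and 2 were separate cultures. There is 1 ChIP group and no other genotype, stage or treatment, so stretches and single-site peaks are classes of peaks within the same libraries and not conditions.

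T26A5.5 is the sequence name of jhdm-1, which the WBcel235 gene table places on chromosome III. Its product belongs to the JmjC-domain family of histone demethylases, enzymes that remove methyl groups from histone lysines, and its mammalian relatives are the KDM2 proteins, which are known for binding at CpG islands. The autosomes of C. elegans have gene-dense, actively expressed centres and arms that are richer in repeats and in heterochromatin marks. The X chromosome lacks that sharp division. A chromatin protein can be recovered at isolated sites or over longer tracts, and the number, spacing and strength of sites inside a tract describe which of these a peak list holds.

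The 3 lists hold intervals with scores and no counts of reads, and sequencing depth is therefore unknown for every value. The rule used the intervals of all 3 lists. Number of sites, width, spacing and score are therefore given as descriptions, with no test. The same holds for positions, because sites and peaks of the same libraries are not replicates. Intervals of shares are Wilson 95% intervals, which cover counting error and nothing else.

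Most stretches lay near the minimum of the rule. Of the 744 stretches, 353 (47.4%) held 3 sites, 184 (24.7%) held 4, 81 (10.9%) held 5 and 126 held 6 or more, with a highest value of 14. The share of replicate 1 peaks that met replicate 2 was 78.2% for the 2468 peaks with 1 site, 85.3% for the 894 with 2 sites, 90.5% for the 390 with 3 sites and 94.4% for the 195 with 4 sites. Beyond that it went up and down, at 92.0% for the 88 peaks with 5 sites, 98.3% for the 60 with 6 and 96.6% for the 29 with 7. All 39 peaks with 8 or more sites met a replicate 2 peak, so the 57 peaks with at least 3 sites that failed the rule had 3 to 7 sites. A wider peak has more bases at which a replicate 2 peak can overlap it, and the part of width in these shares was not tested.

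**Figure D1:**
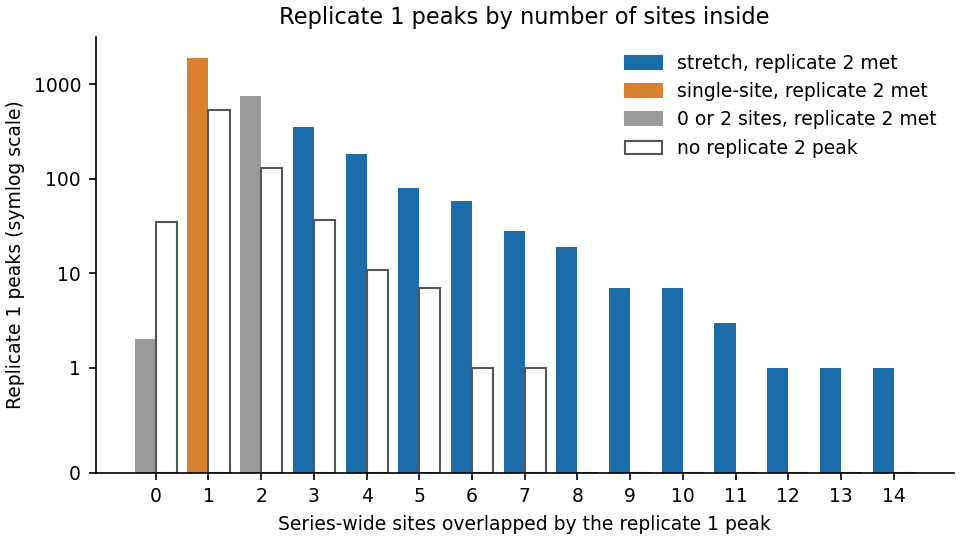
Number of replicate 1 peaks (vertical axis, symlog scale, which is linear from 0 to 1 and logarithmic above) by the number of series-wide sites they overlapped (horizontal axis). Filled bars met a replicate 2 peak and open bars did not. Stretches ran from 353 peaks with 3 sites to 1 peak with 14, beside 1930 single-site peaks.

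Stretches were longer than single-site peaks, as the rule favours. The replicate 1 interval had a median of 4465 bp in stretches (interquartile range 3174 to 6189 bp, from 1315 to 22737 bp) and 1398 bp in single-site peaks (1218 to 1786 bp, from 956 to 6884 bp). Together the stretches covered 3.71 Mb, 35.8% of the bases in the replicate 1 list. Stretches with exactly 3 sites, just inside the threshold, were 3379 bp wide at the median, and their median replicate 1 score was 1131. Peaks with 2 sites and a replicate 2 peak, just outside it, numbered 763 and had medians of 2394 bp and 681.

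Length and number of sites rose together, though not tightly. Across the 744 stretches Spearman's rho between width and number of sites was 0.623, a description of intervals from the same library in which both depend on the replicate 1 boundaries. The number of sites per kb changed little with the number of sites, with medians of 0.888 per kb at 3 sites, 0.891 at 4, 0.847 at 5 and 0.947 at 6 or more. Stretches thus got longer as they held more sites, at a spacing of about the same density. Sites covered a median of 56.0% of a stretch (interquartile range 45.9 to 66.7%) and 43.8% of a single-site peak (36.3 to 54.3%). At equal width this difference was not steady. The medians were 53.8% in stretches and 52.6% in single-site peaks from 2000 to 3000 bp. They were 53.2% and 33.9% from 3000 to 4000 bp, and 56.7% and 57.2% from 4000 to 6000 bp. Outside the outermost sites the replicate 1 interval ran on for a median of 336 bp on the left and 376 bp on the right. In 78 stretches (10.5%) a site reached past the edge of the replicate 1 interval.

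Inside the stretches, sites were separated by short gaps, as the rule favours. Every stretch gap had to lie within the same called peak, which limits its length. Gaps of all neighbours had no such limit, so the contrasts with them given here come in part from the selection. The 2363 gaps between consecutive sites had a median of 239 bp (interquartile range 135 to 519 bp), and the distance between the midpoints of consecutive sites had a median of 929 bp. Over all 12344 pairs of neighbouring sites in the series-wide list, the stretch gaps included, the median gap was 1731 bp. Gaps under 500 bp made up 73.6% of the stretch gaps (1738 of 2363) and 27.9% of all neighbours. Of the gaps under 100 bp in the whole list, 366 of 686 (53.4%) lay inside stretches, and of those of 1000 bp or more, 177 of 7418 (2.39%) did.

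The smallest gap in the series-wide list was 51 bp, and no sites are listed closer than that. The gap counts in stretches did not fall evenly with distance. In classes of 20 bp they numbered 177 from 50 to 69 bp and 118 from 90 to 109 bp. They then rose to 129 from 110 to 129 bp, 149 from 130 to 149 bp and 151 from 150 to 169 bp. Further classes held 92 from 190 to 209 bp, 51 from 290 to 309 bp and 70 from 310 to 329 bp. All neighbours had 217 gaps at 90 to 109 bp, 265 at 110 to 129 bp and 252 at 130 to 149 bp. They had 273 at 150 to 169 bp and 172 at 190 to 209 bp. The rise among all neighbours was thus already present at 110 to 129 bp. Their counts include the stretch gaps, so they are no separate support for a rise near 150 bp. The narrowest site of the list was 146 bp wide.

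**Figure D2:**
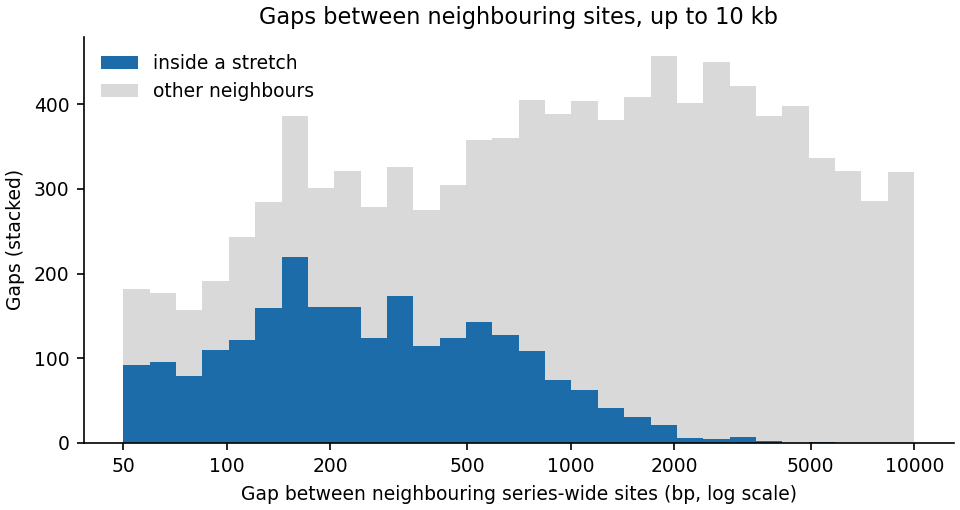
Gaps between neighbouring series-wide sites up to 10 kb (horizontal axis, bp, log scale) and their number (vertical axis). The 2363 gaps inside stretches, median 239 bp, are stacked below those of other neighbours.

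Gaps varied within a stretch. The largest gap of a stretch had a median of 555 bp and the smallest a median of 123 bp. In 324 stretches (43.5%) every gap was under 500 bp, while 152 stretches (20.4%) held a gap of 1000 bp or more, the longest being 5183 bp. Over the 2363 gaps, Spearman's rho between the gap and the lower score of the 2 sites beside it was 0.0429. These points share stretches and the same caller, and the value is a description.

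The stretch with the most sites was IV 14786417 to 14799961 (WS220, as are all coordinates here), with 14 sites in 13545 bp. Its score was 3100 in replicate 1, and a single replicate 2 peak, also with a score of 3100, met all 14 sites. Its strongest site, 1816 bp wide, had a score of 90.37, and 3 others, at 55.21, 54.70 and 47.06, stood apart from the rest, which ran from 1.53 to 31.93. The next, I 11083122 to 11097226, held 13 sites and was more even, with site scores from 2.93 to 44.13. Replicate 1 gave it 2100 and replicate 2 gave 1305, in a 19435 bp peak that met 12 of the 13 sites and began upstream of the stretch.

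III 12595188 to 12617924, with 12 sites, was the widest peak of the whole replicate 1 list at 22737 bp. Its highest site scores were on the left. The outermost site on the left had a score of 74.51 and its neighbour, 5773 bp wide, had 120.44. An interior site of 4584 bp had 44.20, after sites of 7.33 and 9.58, and the last 4 sites on the right ran from 1.91 to 20.23. Sites covered 87.3% of it. II 11613733 to 11622094, with 11 sites in 8362 bp, was more one-sided, with 99.84 at the left edge and no more than 15.00 at the other 10 sites. The replicate 2 peak over it was 24485 bp wide and met 20 sites, so replicate 2 joined more of the neighbourhood than replicate 1. V 19995235 to 20003222, also with 11 sites, had 53.89 at its left edge and 2.11 to 12.46 elsewhere. Its scores in replicates 1 and 2 were 452 and 2476.

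III 1569204 to 1575474 packed 11 sites into 6271 bp with a median gap of 160 bp. Replicate 2 met 5 of them, at both ends, and left 6 consecutive sites with scores from 4.26 to 8.26 unmet. V 10039748 to 10050683 and V 20455443 to 20465327, with 10 sites each, were likewise broken up in replicate 2, which met 3 and 5 of their sites. By contrast, all 10 sites of I 7493719 to 7504382 lay on a single replicate 2 peak with a score of 3100, although its replicate 1 score was 200. I 6788174 to 6803111, 14938 bp wide, had a gap of 4001 bp between its left group of 6 sites and its right group of 4. Its replicate 1 score was 66.79, near the lowest of the list, while 2 of the 3 replicate 2 peaks on it had 3100.

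The leading stretch of X was X 2037946 to 2047088, with 10 sites in 9143 bp. A site of 88.99 at its left edge was followed by 9 sites from 1.63 to 8.15. The replicate 1 score was 2301 and the 3 replicate 2 peaks had 3100, 815 and 3088, and together they met all 10 sites.

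**Figure D3:**
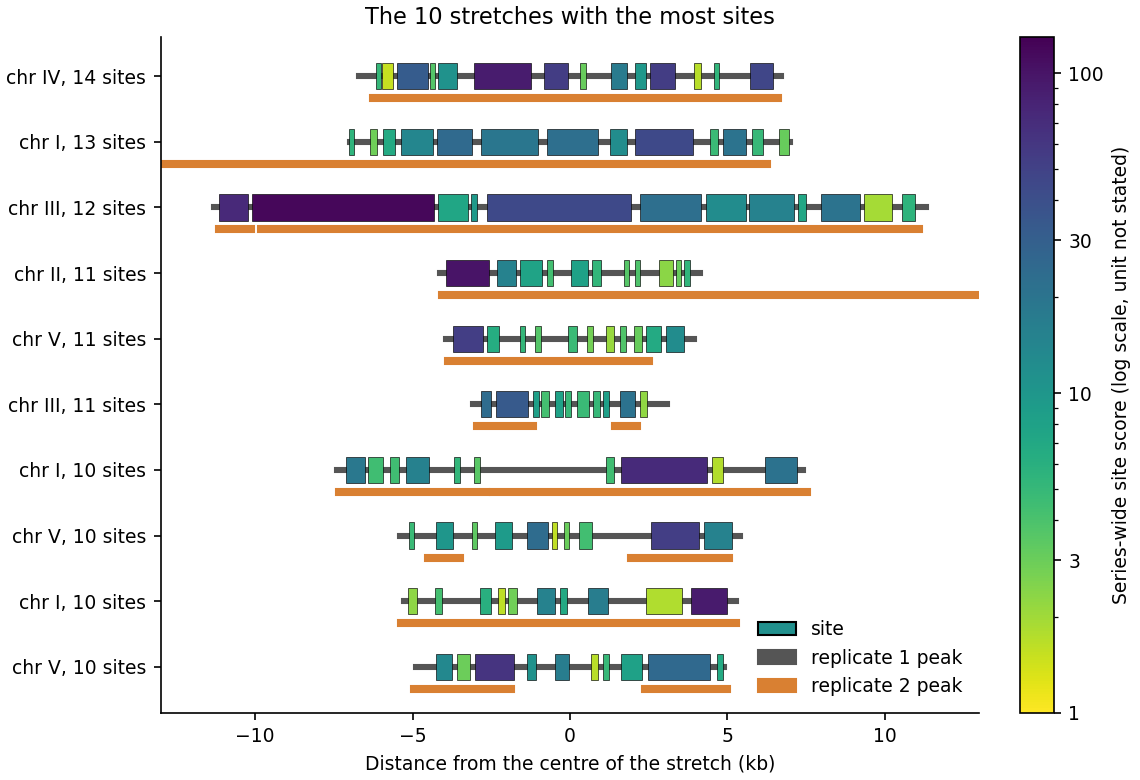
Map of the 10 stretches with the most sites, most at the top, each centred on the replicate 1 interval (grey line; horizontal axis, distance from its centre in kb). Boxes are series-wide sites, darker for higher scores (log scale), and orange bars are replicate 2 peaks, cut at the plot's edge where they run on. The 12-site stretch on III is the widest, at 22737 bp, and the stretch on II carries its one dark site, of score 99.84, at the left edge.

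One strong site beside weak ones was the common make-up of a stretch. Across the 744 stretches the highest site score had a median of 54.10 (interquartile range 31.51 to 74.99), the second highest 12.62 (7.49 to 27.01) and the third 5.95 (3.55 to 10.43). The site of a single-site peak had a median score of 33.64 (22.57 to 50.28), and all 12350 sites a median of 9.82. The highest score of a stretch is the largest of several values, which by itself places it above the score of a lone site. All 3105 sites of the stretches had a median of 8.8, below both of these medians. In 458 stretches (61.6%, 58.0 to 65.0) the highest score was at least 2 times the second. The highest score in a stretch was a median of 13.6-fold above the lowest, and at least 10-fold above it in 446 stretches (59.9%), while 26 (3.49%) stayed under 2-fold. Part of this spread comes with the number of sites, since more values reach further apart: the median fold was 8.81 at 3 sites, 13.7 at 4, 21.1 at 5 and 27.8 at 6 or more.

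**Figure D4:**
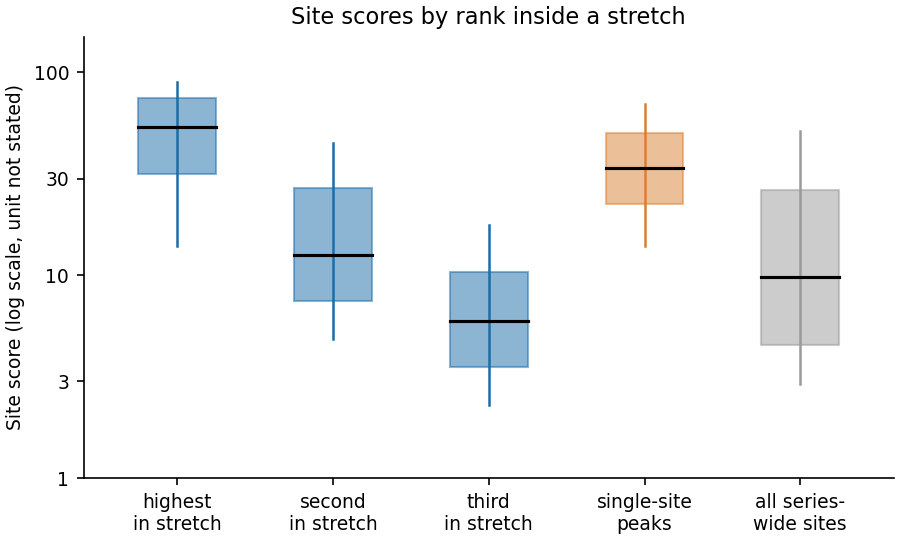
Series-wide site score (vertical axis, log scale, unit not stated) of the 3 highest-ranked sites in each of 744 stretches, of the sites of 1930 single-site peaks and of all 12350 sites. Lines across boxes are medians, boxes interquartile ranges and whiskers the range from 10% to 90% of values. The medians in stretches were 54.10, 12.62 and 5.95, beside 33.64 in single-site peaks.

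Stretches therefore took sites from both ends of the score range. They held 25.1% of all sites, 36.6% of the top 10% by score (452 of 1235) and 32.5% of the lowest 10% (407 of 1251). A top 10% site, with a score of at least 51.6, was present in 394 stretches (53.0%, Wilson 49.4 to 56.5) and 460 single-site peaks (23.8%, 22.0 to 25.8). A lowest 10% site, with a score of no more than 2.90, was present in 306 stretches (41.1%) and 10 single-site peaks (0.518%). Stretches had more sites that could be in either class. Both kinds stood together in 176 stretches (23.7%), and 54 (7.26%) had at least 2 top 10% sites. No site reached the list's median in 42 stretches (5.65%) and in 96 single-site peaks (4.97%).

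The strong site was also broad. The highest-scored site had a median width of 921 bp, the second 548 bp and the third 353 bp, and in 501 stretches (67.3%) the highest-scored site was also the widest. Width and score of the 3105 sites had a Spearman rho of 0.694. For the scores of consecutive sites rho was 0.0152 over 2363 pairs. These points share stretches and a library, and the values are descriptions.

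The strongest site was often at an end of the stretch. It was the first or last site in 507 of 744 stretches (68.1%, 64.7 to 71.4), a share that depends on how many sites are interior. Among the 353 stretches with 3 sites it was the first in 36.3%, the middle one in 26.1% and the last in 37.7%. With 4 sites the shares along the chromosome were 32.1%, 18.5%, 17.9% and 31.5%, and with 5 sites they were 37.0%, 12.3%, 8.64%, 14.8% and 27.2%. At 4, 5 and 6 sites the share at either end was above that at any interior position. Median scores followed the same order at 5 sites, with 12.06 and 12.16 at the ends and 4.76, 5.84 and 5.97 between them. Overlap with replicate 2 had the other order at 4 sites, with 84.8% and 88.6% of the end sites met and 93.5% and 91.8% of the middle ones. At 3 sites 88.4% and 87.8% of the end sites were met and 91.5% of the middle ones. At 6 sites the ends had 83.1% and 84.7%, and the sites between them 89.8% to 98.3%. Only at 5 sites did this order not hold, with 93.8% and 90.1% at the ends and 92.6%, 93.8% and 93.8% between them.

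The widest score spreads belonged to IV 16482083 to 16494721, V 7057725 to 7064432 and I 11074800 to 11083077, at 87.8-fold, 80.4-fold and 76.2-fold. Each had a score of 3100 in replicate 1 and a best score of 3100 in replicate 2. In all 3 the strongest site was at an end, with scores of 114.16, 114.91 and 112.06, and the weakest had 1.30, 1.43 and 1.47. The last of these ended 44 bp before the 13-site stretch on chromosome I, and the 19435 bp replicate 2 peak ran over both.

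The smallest median gap was seen at II 1040301 to 1044487, where 3 sites of 1631, 1421 and 388 bp were separated by 53 and 51 bp and had scores of 97.51, 58.52 and 2.33. Its sites were broad, and it held 0.717 sites per kb, under the medians given above. III 88679 to 91077 had 3 sites separated by 64 and 53 bp, with scores of 94.79, 7.32 and 13.19. I 11909556 to 11913787 had 4 sites, with scores of 54.26, 21.89, 9.97 and 44.27 and gaps of 60, 54 and 464 bp. All 3 had a score of 3100 in replicate 1 and in replicate 2.

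Replicate 2 was used by the rule for 1 overlap anywhere in the stretch, and how many of the sites it met was not fixed. A replicate 2 peak met 2800 of the 3105 sites in stretches (90.2%, Wilson 89.1 to 91.2), 1915 of the 1930 sites in single-site peaks (99.2%, 98.7 to 99.5) and 73.0% of all 12350 sites. A single-site peak had to meet replicate 2 next to its one site, which leaves little room for another value. Every site was met in 558 of the 744 stretches, 1 site in 39 and no site in 1. The highest-scored site was met in 718 of 744 stretches (96.5%) and the lowest in 638 (85.8%).

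The share of sites met by replicate 2 was highest in the highest score quartile, in stretches and in single-site peaks. Within stretches it was 86.3% in the lowest score quartile of the whole list, 84.2% in the second, 91.5% in the third and 99.1% in the highest. In single-site peaks the shares were 82.4% (14 of 17), 96.2%, 98.7% and 99.8%. Sites of a stretch often shared 1 replicate 2 peak, as given next, so these shares are no separate support for each site.

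Most stretches met 1 replicate 2 peak. In 530 stretches (71.2%) a single replicate 2 peak was met. This was less often than in single-site peaks (95.8%) and in peaks with 2 sites and a replicate 2 peak (86.5%). Of all replicate 1 peaks, some of which met none, 72.4% met exactly 1. In 214 stretches (28.8%) 2 to 5 were met, beside 9.48% of all replicate 1 peaks with 2 or more. A single peak did not always reach every site. Of the single-site peaks, 81 (4.20%) met more than 1 replicate 2 peak. All sites lay on 1 replicate 2 peak in 433 stretches (58.2%), and 550 (73.9%) had at least 3 sites on 1 replicate 2 peak. Replicate 2 peaks covered a median of 93.9% of a stretch and 84.9% of a single-site peak. Where replicate 2 split a stretch and had 1 peak with the highest score, that peak met the stretch's highest-scored site in 149 of 205 cases (72.7%, 66.2 to 78.3).

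With the replicates exchanged, the rule gave 712 replicate 2 stretches of 6563 peaks, 4663 bp wide and with 4 sites at the median. Of the 744 stretches, 570 (76.6%) overlapped one of these, and of the 712, 573 (80.5%) overlapped a stretch. Among single-site peaks 111 (5.75%) did. The 2 sets held 3812 different sites in all, of which 2270 were in both. The 174 stretches with no partner were shorter, with a median width of 3610 bp against 4712 bp in the 570 with one, and had a median replicate 1 score of 1171 against 1629.

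Scores of the replicate lists were higher over stretches. The replicate 1 score had a median of 1465 in stretches (interquartile range 604 to 3100) and 343 in single-site peaks (151 to 841). The highest replicate 2 score on the interval had medians of 3100 (1076 to 3100) and 678 (241 to 1911). A score of exactly 3100 was shared by 378 replicate 1 peaks and 20 had more, so equal values of 3100 do not rank peaks. A score of 3100 or above was given by replicate 1 to 194 stretches (26.1%) and 107 single-site peaks (5.54%), against 9.48% of all its peaks. Replicate 2 did so for 389 (52.3%) and 361 (18.7%), against 980 of all 4200 replicate 1 peaks (23.3%). The ranges overlapped almost completely, from 52.80 to 3218 in stretches and from 50.53 to 3203 in single-site peaks in replicate 1.

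Within classes of equal width the replicate 1 medians had the other order. Between 2000 bp and just under 3000 bp the median replicate 1 score was 639 in 127 stretches (upper quartile 1212) and 908 in 240 single-site peaks (upper quartile 2352). From 3000 to 4000 bp it was 1010 in 151 stretches (504 to 2048) and 1344 in 72 single-site peaks (417 to 3100), and from 4000 to 6000 bp 2138 in 230 stretches and 3100 in 44 single-site peaks. The interquartile ranges overlapped in these 3 classes. From 1500 to 2000 bp they did not, at 91.6 to 248 in 28 stretches and 256 to 1131 in 423 single-site peaks. Replicate 2 gave the same intervals medians of 1158 in stretches and 1629 in single-site peaks at 2000 to 3000 bp, 2128 and 2646 at 3000 to 4000 bp, and 3100 in both at 4000 to 6000 bp. In the stretches built on replicate 2 the order was not the same throughout. Their own scores had medians of 1586 in 102 stretches and 1337 in 206 single-site peaks of 2000 to 3000 bp, and 2147 in 144 and 2649 in 86 of 3000 to 4000 bp. The highest site score followed the width as well, with 34.82 in stretches and 42.06 in single-site peaks at 2000 to 3000 bp and 60.05 and 58.00 at 4000 to 6000 bp.

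Stretches lay on all 6 chromosomes. Chromosome III held 168, I 144, II 134, IV 126, V 114 and X 58. Per Mb this was 12.2 on III, 9.57 on I, 8.77 on II, 7.21 on IV, 5.46 on V and 3.27 on X. Single-site peaks numbered 424 on I, 358 on III, 348 on II, 315 on IV, 284 on V and 201 on X, so I had the most single-site peaks and III the most stretches. Of the replicate 1 peaks of a chromosome, the share that were stretches was 19.7% on III (Wilson 17.2 to 22.5), 18.9% on V (16.0 to 22.2), 18.2% on II (15.5 to 21.1), 17.5% on IV (14.9 to 20.4), 16.6% on I (14.2 to 19.2) and 13.9% on X (10.9 to 17.6). Neighbouring intervals in this order overlap, and those of III and X overlap at their edges.

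X held 7.80% of the stretches (58 of 744, 6.08 to 9.95), 10.4% of the single-site peaks (201 of 1930, 9.13 to 11.9) and 9.90% of all replicate 1 peaks. By the exchanged rule X held 9.55% of the replicate 2 stretches, 9.46% of the replicate 2 single-site peaks and 13.6% of all replicate 2 peaks. The lower share on X beside single-site peaks was thus seen with replicate 1 intervals and not with replicate 2 intervals. The stretches of X were long, with a median of 5890 bp beside 4099 to 4554 bp on the autosomes. Their score spread had a median of 20.1-fold, beside 12.7-fold to 13.6-fold on the autosomes. The median over all their gaps was 256 bp, beside 229 to 255 bp on the autosomes. Taken per stretch, the median gap had a median of 332 bp on X, beside 239 to 276 bp on the autosomes. The median number of sites was 4 on X, as on every autosome except IV with 3, but the upper quartile was 5.75 on X and 4 to 5 on the autosomes. The part of site number in the score spread of X was not tested. Coverage of X in this mixed population is unknown.

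Along the chromosome, stretches lay nearer to the ends than single-site peaks. Arms, taken as the part outside the central 25% to 75% of each chromosome, held 377 of 744 stretches (50.7%, Wilson 47.1 to 54.3), 721 of 1930 single-site peaks (37.4%, 35.2 to 39.5) and 43.1% of all replicate 1 peaks. Peaks with 2 sites were between them, at 45.2%. On every autosome the share of replicate 1 peaks that were stretches was higher in the arms. It was 22.2% in the arms and 12.4% in the centre of I, 21.3% and 15.6% on II, 22.8% and 17.5% on III, 19.3% and 16.0% on IV, and 23.2% and 16.3% on V. Over the autosomes it was 21.7% in the arms (348 of 1603, 19.8 to 23.8) and 15.5% in the centres (338 of 2181, 14.0 to 17.1). On X it was 13.9% in the arms and 14.0% in the centre.

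Replicate 2 intervals gave another picture. The share of replicate 2 peaks that were stretches by the exchanged rule was 10.6% in the arms of autosomes (9.51 to 11.8) and 12.1% in their centres (10.9 to 13.3), and 6.31% and 9.58% on X. Among the autosomes, chromosome I alone kept the order seen in replicate 1, with 11.7% in its arms and 10.0% in its centre. The shares were 12.3% in the arms and 13.4% in the centre of II, 11.4% and 13.1% on III, 8.55% and 11.6% on IV, and 8.48% and 12.5% on V. Arms held 45.8% of the replicate 2 stretches, 40.2% of the replicate 2 single-site peaks and 50.1% of all replicate 2 peaks, so beside single-site peaks the direction was kept and beside all peaks it was turned round. Of the 174 stretches with no replicate 2 stretch on them, 118 lay in arms (67.8%, 60.6 to 74.3), and of the 570 with one, 259 did (45.4%, 41.4 to 49.5). Between 2000 bp and just under 3000 bp the arm share was 66.1% in stretches and 37.1% in single-site peaks of replicate 1, and 60.8% and 35.9% in those of replicate 2. Between 3000 and 4000 bp it was 49.7% and 22.2% in replicate 1, and 39.58% and 36.05% in replicate 2, where the difference was smaller. Between 4000 and 6000 bp it was 45.2% and 40.9% in replicate 1, and 40.6% and 35.3% in replicate 2. From 6000 bp upwards replicate 1 had the other order, with 43.1% of 204 stretches and 2 of only 4 single-site peaks in arms.

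**Figure D5:**
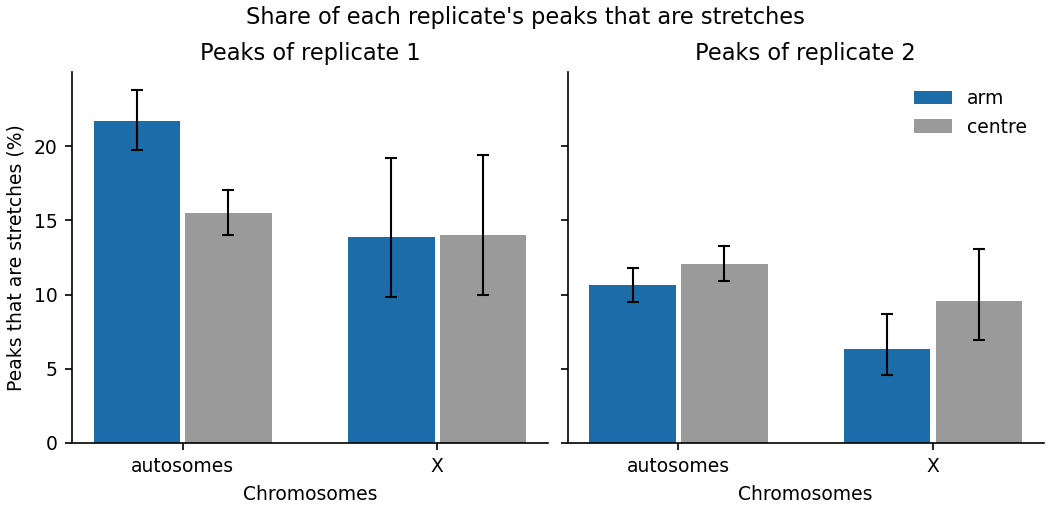
Share of peaks that are stretches (vertical axis, %) in arms and centres of the autosomes and of X, for replicate 1 peaks (left) and, by the exchanged rule, replicate 2 peaks (right). Bars are shares and error bars Wilson 95% intervals. Replicate 1 has 21.7% in autosome arms and 15.5% in centres, and replicate 2 has 10.6% and 12.1%.

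Arm stretches were shorter and weaker than those of the centres. Their median width was 4114 bp, against 4836 bp in the centres, and their median replicate 1 score 1084 against 1900. They had 0.958 sites per kb against 0.840, with a median gap of 222 bp against 267 bp. The median number of sites was 4 in both. The distributions overlapped, with interquartile ranges of width from 2772 to 5845 bp in the arms and from 3530 to 6582 bp in the centres.

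Each of the 103 bins of 1 Mb held at least 1 stretch, with a median of 7 and a highest count of 19. That bin, III 4000001 to 5000000, also held 52 single-site peaks, and 21.6% of its 88 replicate 1 peaks were stretches. The next bin, III 1000001 to 2000000, had 17 stretches and 10 single-site peaks, so that 35.4% of its 48 replicate 1 peaks were stretches. I 1000001 to 2000000 was alike, with 14 stretches and 10 single-site peaks. These bins were chosen after their values were seen. Following the chromosome, the next replicate 1 peak was a stretch after 136 of 744 stretches (18.3%, 15.7 to 21.2) and after 338 of 1928 single-site peaks (17.5%, 15.9 to 19.3), and these intervals overlap.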

How the data were processed

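Peak lists of 2 ChIP samples and of the series were used, and the 2 inputs enter as far as the authors used them. BWA and the build ce10 are named, with no role, per the submitters' processing notes. WormBase WS220 is the genome build per the file headers. MACS made the replicate lists and MACS v2 the series-wide list, per their source column. Cut-offs, control and pooling: not given in the sources used here. Each peak has a deposited score with no stated unit, which was compared within a list.

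Overlap meant at least 1 bp, with 1-based intervals. Chromosome length was the highest peak end in any list, and centres ran from 25% to 75% of it. Members, classes and measures were chosen with earlier results of these data known. The width classes, the 20 bp gap classes, the position of the strongest site and the split by replicate 2 partner were added after first values had been seen. The named stretches are the 10 with the most sites, the leading one of each chromosome, and the 3 each with the widest score spread and the smallest median gap. No test was made. Alternatives changed the minimum of sites, the overlap, the sites' scores, the joining of sites, the replicates and the chromosomes. The counting step was tested on simulated lists with planted stretches. A WS220 genome or annotation was not used here, so no gene or sequence is given. Tools were pandas 2.3.3, numpy 2.4.6 and scipy 1.17.1 under Python 3.11.15, with figures from matplotlib 3.10.9.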

Additional observations from a re-analysis of the deposited data

How the results depend on the processing

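The 7 values summarised here are the number of stretches (744), their median width (4465 bp), the median gap between sites (239 bp), the median fold from the lowest to the highest site score (13.6), the shares on X (7.80%) and in arms (50.7%), and the share of sites met by replicate 2 (90.2%). A value is taken as moved where it shifted by more than the SD of the values from replicate 1 and replicate 2 intervals, and a count where it changed by over 1.5 times. That SD rests on 2 values and can be small, so a small shift can count as moved. It is made from the exchange of the replicates itself, which therefore counts as moved by construction for every value except the count. Requiring 50% of a site, or its midpoint, inside the replicate 1 peak moved none of the 7. Asking for at least 2 sites gave 1507 stretches, 3174 bp and 7.49-fold, and at least 4 sites gave 391, 5703 bp, 19.5-fold and 9.46% on X. With sites at or above the median score there were 208 stretches, of 6061 bp, with gaps of 457 bp, 4.33-fold, 3.85% on X, 44.7% in arms and 95.5% of sites met. With sites under 200 bp apart joined there were 427, of 5412 bp, with gaps of 482 bp, 12.3-fold, 9.84% on X and 46.8% in arms. Exchanging the replicates gave 4663 bp, 256 bp, 13.4-fold, 9.55% on X, 45.8% in arms and 88.1% of sites met by replicate 1. Autosomes alone gave 13.1-fold. Chains of sites under 1000 bp apart, an alternative added after the data had been seen, gave 3429 bp, 266 bp, 13.4-fold and 86.5% of sites met. Without replicate 1 or without replicate 2 the values ran from 801 to 839 stretches, 4347 to 4387 bp, 240 to 259 bp, 11.4-fold to 12.5-fold, 7.74% to 10.4% on X and 48.7% to 52.1% in arms. Without either, the share of sites met was not computed. For the other changes the cause was not tested. No paired analysis was possible because no list used here holds values of an input sample and no test was made. Depth is unknown, so a site missing from a list cannot be told from a site without binding.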

Other observations

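Replicate 1 intervals with at least 3 sites and no replicate 2 peak numbered 57. Chromosome III held 19, II 12, I 9, V 8, IV 5 and X 4, and 40 of the 57 lay in arms (70.2%). The median width was 4465 bp in the 744 stretches and 2980 bp in these 57. The median replicate 1 score was 1465 in the stretches and 407 in the 57, and the median of the highest site score 54.10 and 10.62. The highest site score among the 57 was 86.84.

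Of the 712 replicate 2 stretches, 139 overlapped none of the 744. Their median width was 4259 bp and their median replicate 2 score 2868, and the largest held 13 sites. Some strongly scored tracts of replicate 2 with several sites are thus absent from the set built on replicate 1.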
